A study of Arabidopsis thaliana with 6 samples.

Results

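MYR2 (AT3G04030) is a gene on chromosome 3 of Arabidopsis thaliana that encodes a MYB-type transcription factor. It was followed through the 1 probe set that the platform annotation pairs with that symbol, among 38408 probe sets and 16540 named genes. The gene was picked because it was among the largest losses of signal in apl, so its own difference is described here with no test. Transcripts were measured on 1-colour Affymetrix arrays, with 3 arrays of apl and 3 arrays of wildtype (Col-0). The 2 groups share everything else that the labels give: seedlings were grown for 6 days, and their cotyledons were then kept for 72 h in a medium that held 1.25 mg/L 2,4-D, 0.25 mg/L kinetin and 10 µM bikinin. This culture, named VISUAL, induces leaf cells to become vascular cells. The labels give neither the apl allele nor the background of the apl line, nor do they say that each array came from its own culture, so the p-values given rest on a spread between arrays that may be no more than technical. In bulk cotyledons, fewer cells of a type and less RNA per cell cannot be told apart.

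MYR2 belongs to the MYB-CC group of transcription factors, whose members join a MYB-type DNA-binding domain to a coiled coil through which they pair. APL, the gene after which the mutant is named, is in the same group and is needed for phloem identity in roots and shoots. The best known member, PHR1, switches on the phosphate starvation response, while MYR2 and its close relative MYR1 are known in Arabidopsis as repressors of flowering. Membership of this group was taken from general knowledge and was not checked against protein sequences here.

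The MYR2 signal, in log2 units, was 3.60, 4.02 and 2.85 on apl arrays 1, 2 and 3, and 7.80, 7.38 and 7.92 on wildtype arrays 1, 2 and 3. All 3 apl arrays lay below all 3 wildtype arrays, and 3.36 log2 units separated the highest apl array from the lowest wildtype array. The mean was 3.49 ± 0.59 in apl and 7.70 ± 0.29 in wildtype (SD, n = 3 each). The difference, apl minus wildtype, was -4.21 (SE 0.33), so the apl signal was 5.39% of the wildtype signal, or 18.6-fold lower. The apl values spanned 1.17 log2 units and the wildtype values 0.54. Between arrays with the same replicate number the difference was -4.20, -3.36 and -5.07 for numbers 1, 2 and 3, which leaves 5.42%, 9.71% and 2.97% of the wildtype signal. The smallest difference among the numbered pairs was thus at number 2 and the largest at number 3.

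**Figure D1:**
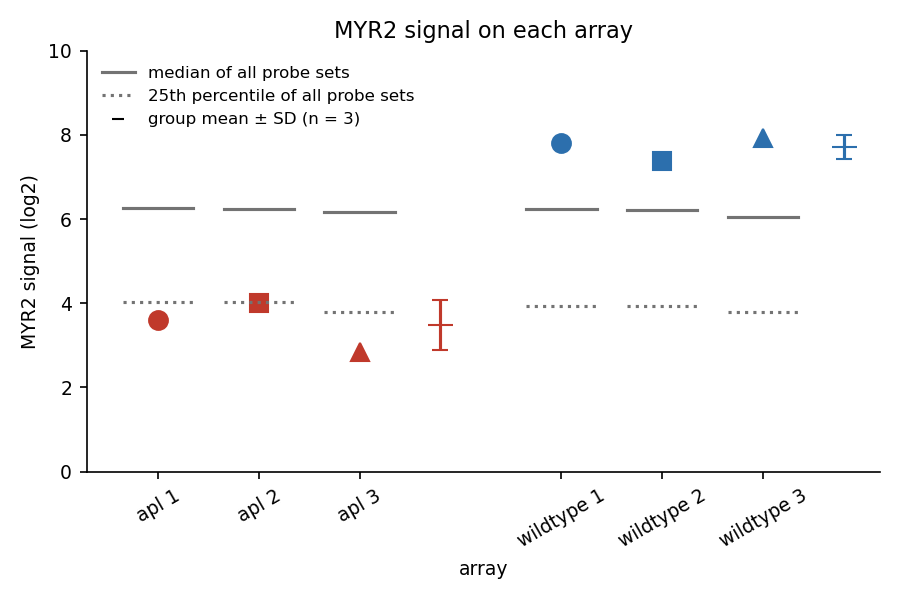
MYR2 signal in log2 units on each of the 3 apl and 3 wildtype arrays, with the median (solid line) and the 25th percentile (dotted line) of all probe sets on that array, and each group's mean ± SD to its right. The apl values of 2.85 to 4.02 lie under the dotted line, and the wildtype values of 7.38 to 7.92 lie above the solid line.

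Within each array, MYR2 stood at percentiles 19.2, 24.96 and 13.0 of all probe sets on apl arrays 1, 2 and 3. On wildtype arrays 1, 2 and 3 it stood at percentiles 68.2, 63.6 and 71.0. It therefore counted among moderately bright probe sets in wildtype and among the dimmest in apl, where signal cannot be told from background because these values carry no detection call. The fold is one of signal, and the fold in transcript is not known. The difference ranked 103rd from the most negative among 38408 probe sets and 75th among 16540 named genes. Of all probe sets, 0.526% were called lower in apl (limma, Benjamini-Hochberg adjusted p under 0.05), or 0.885% with the replicate number as a block. These shares are background only, since MYR2 was chosen from this contrast. Of the other named genes called lower, 31 had a mean wildtype signal within 0.5 log2 units of that of MYR2. Their differences ran from -4.85 to -1.34 with a median of -3.12, and 3 of the 31 were more negative than the -4.21 of MYR2.

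The next question was whether the relatives of MYR2 differed as well. Of 15 MYB-CC genes, 10 had a probe set with a single gene name, and APL, MYR1, PHR1, PHL1 and UNE16 are not analysed here, so the label apl was not checked on APL itself. Leaving out MYR2, 1 of 9 was called lower and 0 were called higher, against 0.816% of named genes called lower and 0.115% called higher (limma). The counts were also 1 and 0 with the replicate block, against 1.36% and 0.181% of named genes. At an unadjusted p under 0.05 the counts were 2 lower and 0 higher, against 5.36% and 3.11%. The median difference of the 9 was 0.007, beside 0.08 for all named genes.

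AT3G12730, a MYB-CC locus without a name of its own in RefSeq, was the 1 called. Its signal was 3.84, 2.87 and 4.08 on apl arrays 1, 2 and 3, and 8.42, 7.16 and 7.06 on wildtype arrays 1, 2 and 3. The groups do not overlap, and on apl array 2, where MYR2 was highest, this gene was lowest. AT3G12730 fell by 3.95 on the log2 scale in apl (SE 0.46, n = 3 per group), or 15.4-fold in signal, with a limma adjusted p of 0.0223, and 0.0308 with the replicate block. Leaving out 1 array ended the call in 4 of 6 cases, without apl replicate 1 (limma adjusted p 0.106) or wildtype replicate 1 (0.0768), 2 (0.107) or 3 (0.0562), while the difference stayed between -4.19 and -3.51. As with MYR2, its apl signal was low, at percentile 28.2 of its array at most.

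AT1G69580, another MYB-CC locus, had 7.87, 9.02 and 6.54 on apl arrays 1, 2 and 3, and 9.91, 10.2 and 9.34 on wildtype arrays 1, 2 and 3. The groups do not overlap here either, though apl array 2 lay close to wildtype array 3. The order of the apl arrays was that of MYR2, with array 2 highest and array 3 lowest. The difference was -2.01 (SE 0.60), or 4.04-fold, and it did not pass the test (limma adjusted p = 0.342). With the replicate block the adjusted p was 0.0893. Leaving out apl replicate 3 gave -1.38, and leaving out apl replicate 2 gave -2.62. Unlike MYR2, this gene was still bright in apl, between percentiles 53.8 and 81.5 of its array.

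In the other 7 measured MYB-CC genes the groups overlapped. Their differences ran from -0.20 for AT5G06800 to 0.18 for AT2G20400, with SEs of 0.17 to 0.34 and limma adjusted p-values of 0.850 to 0.995. The 95% intervals of these differences lay between -0.81 and 0.78, so changes as large as those of MYR2 or AT3G12730 fall outside them. AT3G13040, for example, had 8.12, 7.95 and 7.99 on the apl arrays and 7.97, 8.11 and 7.95 on the wildtype arrays. AT2G01060 was the brightest of the 7, at 9.48 to 9.92 in apl and 9.47 to 9.84 in wildtype, and AT5G06800 the dimmest, at 2.68 to 2.83 in apl and 2.70 to 3.32 in wildtype, where signal cannot be told from background and its lack of a difference says little. The remaining 4, AT3G24120, AT2G20400, AT3G04450 and AT5G45580, differed by 0.16, 0.18, 0.10 and -0.02. AT3G04450 lies on the same chromosome as MYR2. Leaving out MYR2, the groups did not overlap with apl lower in 2 of 9 genes and with apl higher in 0 of 9, against 6.6% and 8.59% of named genes.

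**Figure D2:**
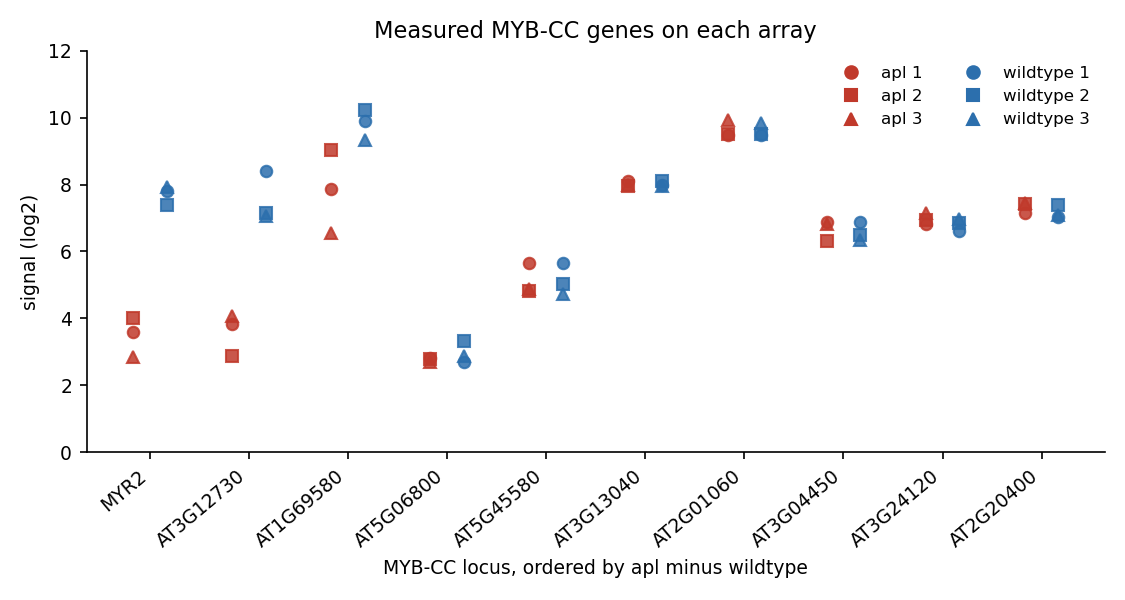
Signal in log2 units on each array for the 10 measured MYB-CC genes, apl left and wildtype right at each gene, with a symbol for each replicate number. MYR2, AT3G12730 and AT1G69580 have separate groups, and the groups of the other 7 overlap.

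The related GARP-type MYB factors outside the MYB-CC group were set beside it. This wider class includes KANADI, GLK and HRS1-type factors with roles in organ polarity, chloroplast development and nutrient responses. Of 17 listed genes, 7 were measured, and 0 were called in either direction (limma, 0 also with the replicate block and 0 at an unadjusted p under 0.05). Of all named genes, 0.816% were called lower and 0.115% higher, so 0 calls among 7 genes says little. With the replicate block these shares were 1.36% and 0.181%, and at the unadjusted p they were 5.36% and 3.11%. Their differences ran from -0.19 to 0.34 with a median of 0.005. AT1G49560, the one with the smallest p, had 7.28, 7.60 and 8.07 on the apl arrays and 7.002, 7.34 and 7.59 on the wildtype arrays, a difference of 0.34 (SE 0.27, limma adjusted p = 0.783). MYBC1 differed by 0.26 (SE 0.31), AT5G05090 by -0.18 (SE 0.19) and AT1G25550 by 0.11 (SE 0.25). Of 45 genes whose RefSeq names mark them as transcription factors or DNA-binding proteins, 0 were called (limma, smallest adjusted p = 0.262). That stands beside 0.816% of named genes called lower and 0.115% called higher. At an unadjusted p under 0.05 there were 4 higher and 3 lower, against 3.11% and 5.36% of named genes. MYR2 is not among these 45, because its RefSeq symbol and synonyms carry no such word.

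Processes tied to the MYB-CC group or to MYR2 could be followed only in small part. None of 31 phosphate starvation genes had a probe set with a single gene name, so that response is not analysed here. Of 21 gibberellin and flowering genes, the gibberellin receptors GID1A, GID1B and GID1C were measured, and 0 of 3 were called (limma, 0 at an unadjusted p under 0.05). With 0.816% of named genes called lower and 0.115% called higher, 0 of 3 says little. At the unadjusted p the shares were 5.36% and 3.11%. GID1A had 9.08, 8.80 and 8.80 on the apl arrays and 8.56, 8.54 and 8.51 on the wildtype arrays, a difference of 0.36 (SE 0.18, limma adjusted p = 0.639). GID1C differed by 0.09 (SE 0.22) and GID1B by 0.01 (SE 0.29).

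MYR2 was then compared with the genes beside it on chromosome 3, using the 10 nearest measured named genes on each side. AT3G04040, the nearest measured gene after it, had 7.22, 7.16 and 6.41 on the apl arrays and 8.29, 8.57 and 8.01 on the wildtype arrays. AT3G04050, the next one, had 5.28, 4.84 and 4.63 on the apl arrays and 5.96, 6.20 and 6.64 on the wildtype arrays. For both, every apl array lay below every wildtype array. The differences were -1.36 (SE 0.28) for AT3G04040 and -1.35 (SE 0.26) for AT3G04050, 2.57-fold and 2.55-fold lower signal in apl. Neither passed the test over all probe sets, with limma adjusted p-values of 0.135 and 0.110, or 0.0527 and 0.139 with the replicate block.

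The genes on the other side of MYR2 lay near or above 0. AT3G04020, the nearest measured gene before it, had 4.35, 5.00 and 4.88 on the apl arrays and 4.33, 4.25 and 4.39 on the wildtype arrays, a difference of 0.42 (SE 0.22, limma adjusted p = 0.668). All 10 genes before MYR2 lay between -0.03 and 0.50, and the 8 genes after AT3G04050 lay between -0.37 and 0.35. Of the genes after, AT3G04150, AT3G04170 and AT3G04180 were at percentile 6.34 of their array at most in either group. Signal there cannot be told from background, so their small differences say little. AT3G03930, before MYR2, was also dim, at percentile 28.5 at most. Over the 20 neighbours 0 were called in either direction (limma), against 0.816% of named genes called lower and 0.115% called higher, and the median was 0.14. At an unadjusted p under 0.05 there were 2 lower, AT3G04040 and AT3G04050, and 0 higher, against 5.36% and 3.11% of named genes. The groups did not overlap in 3 of 20 with apl lower and 2 of 20 with apl higher, against 6.6% and 8.59% of named genes. The 3 include the dim AT3G04150.

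A count over the genome gives the setting for these 2 neighbours. The other 134 named genes called lower have 268 adjacent positions, and the gene differed by -1 or less at 37 of them, which is 13.8%. A gene beside 2 called genes counts at both, and some of these genes are themselves called. Among the 32920 adjacent positions of all named genes on the nuclear chromosomes the count was 1161, which is 3.53%. No test of this difference was made. The annotation leaves many genes unnamed here, so genes adjacent in this list need not touch on the chromosome.

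**Figure D3:**
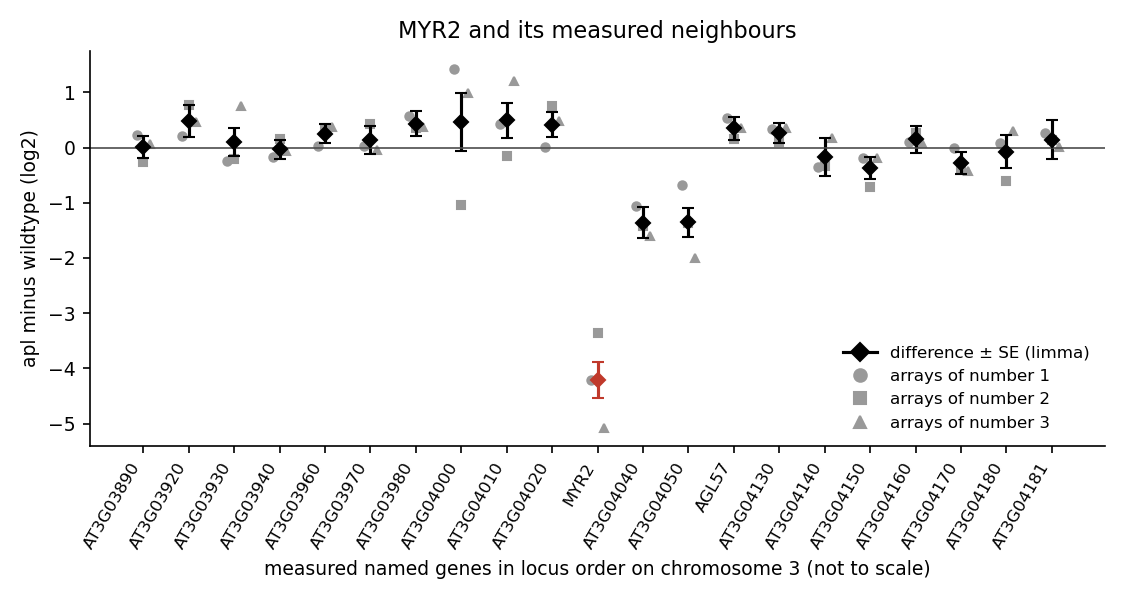
Difference of apl minus wildtype in log2 units for MYR2 and the 10 nearest measured named genes on each side, in locus order and not to distance, with the SE of the limma fit, and the difference between arrays of each replicate number as grey symbols. MYR2 lies at -4.21, the next 2 genes at -1.36 and -1.35, and the other 18 between -0.37 and 0.50.

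The genes whose profile was most like that of MYR2 were found by distance: each gene's log2 values were centred on its mean over the 6 arrays, and the root mean square difference from MYR2 was taken. Among 16539 other named genes the 15 nearest had distances of 0.297 to 0.495 log2 units, the 16th lay at 0.510, and the median over all was 2.19. Pearson's r with MYR2 over the 6 arrays, which share the group difference, was 0.975 to 0.996 for the 15. All 15 were called lower in apl, as the measure makes nearly certain.

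AT5G65530 was the nearest, with 6.32, 6.84 and 5.47 on the apl arrays and 9.85, 10.3 and 10.2 on the wildtype arrays. AT2G41200 followed, with 6.18, 6.92 and 5.29 on the apl arrays and 9.90, 10.3 and 10.0 on the wildtype arrays. Like MYR2, both were highest in apl on array 2 and lowest on array 3, but both were brighter than MYR2 in either group. AT4G00780 was the nearest to MYR2 in mean level among the 15, with 3.73, 3.78 and 2.83 on the apl arrays and 8.35, 7.63 and 7.39 on the wildtype arrays. The other 12, by increasing distance, were AT1G57670, AT4G33490, AT1G52315, AT1G76230, AT3G24110, AT1G11490, AT5G61280, AT1G67790, AT2G28580, AT5G45320, AT2G31550 and AT2G04420. Over the 15 the mean signal was 1.28 to 6.21 in apl and 5.75 to 10.5 in wildtype, with differences of -5.01 to -3.85. A second probe set of AT1G67790, dimmer in its mean over the 6 arrays, disagreed with the one used, with a difference of -0.25 (SE 0.20, limma adjusted p = 0.791). On apl arrays 1, 2 and 3 it was the brighter of the pair, at 7.89, 7.84 and 7.54 against 6.38, 7.25 and 4.84. AT3G24110, at -5.01, had the highest r with MYR2 of the 15 and carries a locus code next to that of the MYB-CC gene AT3G24120, which itself differed by 0.16 (SE 0.19). AT2G31550, one of a pair of neighbouring GDSL lipase genes, was the dimmest, at 1.16 to 1.41 in apl and 5.52 to 5.97 in wildtype. Ranking by absolute Pearson's r, which takes account of neither the size nor the sign of a difference, kept 3 of the 15.

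The MYB-CC genes AT3G12730 and AT1G69580 were not among these 15. Of the 16539 genes compared, AT3G12730 ranked 91st by distance (0.822, r = 0.92) and AT1G69580 218th (1.24, r = 0.86). The order of the apl arrays in MYR2, with array 2 highest, then 1, then 3, was found in 111 of the 201 other probe sets called lower in apl. Array 2 was the highest apl array in 143 of these 201 and array 3 the lowest in 127. MYR2 thus shared its order within apl with most lower calls. In 36 of the 201, as in MYR2, all 3 apl arrays were below the 25th percentile. None of these counts was made over all probe sets, so how common the order is on these arrays is not known. Among the apl arrays, array 3 also had the lowest median over all probe sets, at 6.18 against 6.25 and 6.23 on apl arrays 1 and 2. The median of wildtype array 3 was lower still, at 6.05, and MYR2 had its highest signal there, at 7.92.

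**Figure D4:**
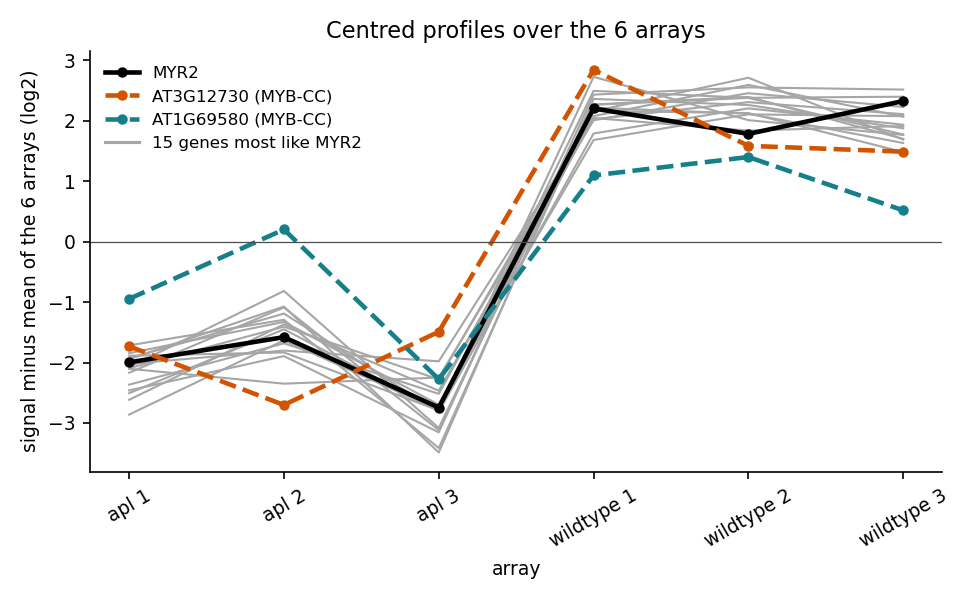
Signal of each gene in log2 units minus its mean over the 6 arrays, for MYR2 (black), the 15 named genes nearest to it (grey) and the MYB-CC genes AT3G12730 and AT1G69580 (dashed). Lines only link the values of 1 gene, and the dashed line of AT3G12730 dips on apl array 2, where MYR2 is at its highest apl value.

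Markers of the cell types that the culture could hold are given beside MYR2. Of 33 phloem genes 6 were measured and 0 were called (limma), against 0.816% of named genes called lower and 0.115% called higher. At p under 0.05 before adjustment 2 were higher and 0 lower, against 3.11% and 5.36% of named genes. Their summed linear signal was 6599 to 8531 in apl and 3533 to 4728 in wildtype. Such a sum rests mainly on bright genes such as CLE44, at 11.6 to 11.7 log2 units in apl. CLE45, at 3.96 to 6.28 in apl, adds little to it. The median difference of the 6 was 0.51, with 5 above 0 and 1 below. SWEET11, a sucrose exporter, differed by 2.25 (SE 0.77), CLE44 by 0.70 (SE 0.17), CLE41 by 0.47 (SE 0.25) and CLE45, a peptide gene of early phloem, by -1.32 (SE 0.58). Markers of late sieve elements, such as SEOR1 and NAC86, are not analysed here. Of 15 xylem genes 3 were measured, all with negative differences and with a summed signal of 1551 to 4960 in apl and 5663 to 9106 in wildtype. IRX15 differed by -2.06 (SE 0.62), IRX15-L by -1.48 (SE 0.48) and GUT2, also named IRX10, by -1.14 (SE 0.42), and 0 of 3 were called (limma), against 0.816% of named genes called lower. At an unadjusted p under 0.05 there were 3 lower, against 5.36% of named genes. In all 3 xylem genes, as in MYR2, apl array 2 was the highest apl array and array 3 the lowest. Most probe sets called lower had this order too. The part of these cell types in the MYR2 difference was not tested.

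The photosynthesis genes measured were bright in both groups, but they do not mark cotyledons alone. Of 7 such genes 2 were measured, with 0 called (limma, 0 at an unadjusted p under 0.05) and a summed signal of 1548 to 1655 in apl and 1293 to 2125 in wildtype. RCA, the activator of Rubisco, differed by -0.18 (SE 0.25) and LHCB4.1, an antenna protein of photosystem II, by 0.15 (SE 0.19). Of 6 epidermis and guard cell genes 3 were measured, with a summed signal of 124 to 169 in apl and 137 to 240 in wildtype and 0 called (limma, 0 at an unadjusted p under 0.05). Of all named genes, 0.816% were called lower and 0.115% higher, and 5.36% and 3.11% passed the unadjusted p. In lists this short, 0 calls says little.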

How the data were processed

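Log2 signals of 38408 probe sets on 6 arrays were used as the authors deposited them. RMA, per the submitters' processing notes, made these log2 values, with no version or grouping of arrays given in the sources used here. RMA pulls in differences of dim transcripts, and the number of arrays limits the precision. Of 16722 probe sets paired with 1 gene, 16714 matched the RefSeq table of assembly TAIR10.1, by gene ID (16574), locus (96) or symbol (44), and the brightest probe set stood for each of 16540 genes. Another 759 were paired with several genes, and the rest are unnamed here.

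The deposited values were fitted in R 4.3.3 by the linear model and moderated variances of limma 3.58.1 (lmFit, eBayes), apl minus wildtype, 2-sided, with Benjamini-Hochberg adjustment over all probe sets and calls under 0.05. The fit was also run on simulated data with independent noise on each array, so that run does not cover arrays that correlate. MYR2, the lists and the tests were chosen with earlier results of these data known. Genes named were MYR2, all measured MYB-CC genes, up to 4 genes with the smallest p of each other list, the nearest and called neighbours, called regulators, and the 15 most alike. AT3G04050, AT3G13040 and other genes named beyond this were chosen after their values were seen. Deviations from group means correlated at 0.40 to 0.45 in the 3 pairs of arrays with the same number, against -0.29 to -0.16 otherwise. By the higher correlation, from the data and not the labels, the number pairs the arrays. Deviations within a group cancel out, so positive values for same-numbered arrays force negative ones elsewhere, which are no separate evidence. Same-numbered arrays also held 740 to 940 identical values, against 0 to 2, and the pairing may thus come from the processing. Protein and promoter comparisons were planned and not run. Figures were drawn with matplotlib 3.10.9.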

Additional observations from a re-analysis of the deposited data

How the results depend on the processing

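The MYR2 difference of -4.21 was -4.27 after quantile normalization or median centring, -4.10 with array weights, and -4.48 to -3.90 without 1 array, all within the spread between replicates. It has no value with probe sets under the 50th percentile left out, since MYR2 is then removed. With MYR2 left out, 1 MYB-CC gene was called, AT3G12730, and also 1 with the replicate block, quantile normalization, median centring, array weights, the 25th percentile filter and the variance trend with robust prior. The count was 0 with the 50th percentile filter, which removes AT3G12730, and 0 to 1 without 1 array. The median of the list with MYR2 was -0.005, near 0, and ranged from -0.14 to 0.07 without 1 array, moving by less than the spread between pairs. Calls over all probe sets, 30 higher and 202 lower, became 81 and 340 with the replicate block and 98 and 314 with the variance trend with robust prior. Leaving out probe sets under the 25th or 50th percentile gave 61 or 92 higher calls and 239 or 201 lower calls. Fewer probe sets were tested in each. Without 1 array there were 1 to 22 higher and 20 to 308 lower. The cause of these changes in the counts was not tested for any setting. The 15 genes most alike were the same 15 after quantile normalization and 3 of them by absolute Pearson's r. AT1G69580, AT3G04040 and AT3G04050 were uncalled under every alternative run, with smallest adjusted p-values of 0.0893, 0.0527 and 0.0783 (limma). The replicate block changed no call of the MYB-CC genes other than MYR2, of the neighbours of MYR2 or of the 15 genes most alike. Without detection calls, the level of MYR2 in apl is known only as low.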

Other observations

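The measured genes beside the other lower MYB-CC loci were listed after the values were seen. AT1G69580 is followed in locus order by CLE45, which encodes a peptide of early phloem and had 5.71, 6.28 and 3.96 on apl arrays 1, 2 and 3 and 7.02, 6.74 and 6.15 on wildtype arrays 1, 2 and 3. The groups overlap only in that apl array 2 lies above wildtype array 3, and the apl arrays stand in the same order as in MYR2 and AT1G69580. This order was also found in 111 of the 201 other probe sets called lower and was not counted over all probe sets. CLE45 differed by -1.32 (SE 0.58, n = 3 per group) and was not called (limma adjusted p = 0.584). The next gene, AT1G69610, differed by -0.58 (SE 0.26), and on the other side AT1G69570 differed by -0.19 (SE 0.18). Beside AT3G12730 the nearest genes AT3G12710 and AT3G12760 differed by -0.34 (SE 0.21) and 0.25 (SE 0.20), and neither was called (limma).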
